A study of Mus musculus with 20 samples.

Results

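Type IV collagen is the network-forming collagen of basement membranes, the thin matrix sheets around muscle fibres, vessels and nerves. The 6 genes that encode its chains, Col4a1 to Col4a6, were picked by symbol out of the 24393 genes of a count table from mouse leg muscle. All 6 passed the filter on low counts that left 14179 genes for testing. RNA was sequenced from 3 cell populations of the quadriceps, tibialis anterior and gastrocnemius, labelled FAP, Misc and SMP, each under the conditions DKO and WT. FAP and Misc had 4 libraries per condition and SMP had 2, which makes 20 in all. The title of the series asks which cells of fibrotic muscle express matrix genes.

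The labels give no alleles, strain, age or sex for either condition, and neither the labels nor the design text used here say how the populations were separated. From background, and as an assumption only, DKO is taken to mean loss of desmin (Des) and nesprin 1 (Syne1), and WT as the control without those deletions. FAP is commonly short for fibro/adipogenic progenitor, a mesenchymal cell of the space between fibres, and SMP for skeletal muscle progenitor. The design text names a population FB where the labels have Misc, and no label ties those names together. Replicates are called biological in the design text, but nothing says that each came from its own animal, so p-values measure the spread between these libraries.

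As background, each type IV collagen molecule is a trimer of chains, and the chains do not combine freely. Col4a1 and Col4a2 products form the network found in nearly all basement membranes, including that of the muscle fibre. Products of Col4a3, Col4a4 and Col4a5 assemble with each other in specialised basement membranes such as those of the kidney glomerulus and the neuromuscular synapse, and their loss causes Alport syndrome. Col4a6 joins Col4a5 in a further network known from smooth muscle and skin. The genes lie in head-to-head pairs, so that each pair is read outwards from a shared stretch of DNA.

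Gene spans are those of RefSeq on mm10, and exons are counted in the longest GENCODE M21 transcript paired with a RefSeq mRNA of the gene. Col4a1 (Entrez 12826, minus strand, 52 exons) spans chromosome 8, 11198423 to 11312889, and Col4a2 (Entrez 12827, plus strand, 48 exons) spans 11312805 to 11449287. These annotations overlap by 85 bases. Col4a3 (Entrez 12828, plus strand, 52 exons) spans chromosome 1, 82586921 to 82722059, and overlaps by 114 bases with Col4a4 (Entrez 12829, minus strand, 48 exons), at 82448419 to 82587034. Col4a5 (Entrez 12830, plus strand, 53 exons) spans chromosome X, 141475370 to 141689236. It starts 1274 bases from Col4a6 (Entrez 94216, minus strand, 45 exons), at 141165403 to 141474095. Whether reads were counted by strand is not given. Exons of antisense genes cover 6.58% of the bases of that transcript for Col4a3, 1.01% for Col4a2, 0.33% for Col4a1 and 0% for the other chains. Longer models of a chain, such as the RefSeq span of Col4a4, can overlap an antisense gene where the transcript used does not.

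RefSeq promoter windows on GRCm38.p6, from 250 bases before to 50 after the start, were matched for 5 of the 6 chains, all but Col4a3. Those of Col4a1, Col4a4, Col4a5 and Col4a6 are shown because the first comes from the pair whose RNA was kept in DKO and the others from the pairs whose RNA was lower. Capitals mark matches, on either strand, to the TATA box letters TATAAA, the CCAAT box, the GC box letters GGGCGG or the homeodomain core TAATTA. On the opposite strand the CCAAT box reads ATTGG, and the GC box reads CCGCCC. The windows are chr8:11312777-11313076 (minus), chr1:82586800-82587099 (minus), chrX:141475169-141475468 (plus) and chrX:141474027-141474326 (minus).
Col4a1: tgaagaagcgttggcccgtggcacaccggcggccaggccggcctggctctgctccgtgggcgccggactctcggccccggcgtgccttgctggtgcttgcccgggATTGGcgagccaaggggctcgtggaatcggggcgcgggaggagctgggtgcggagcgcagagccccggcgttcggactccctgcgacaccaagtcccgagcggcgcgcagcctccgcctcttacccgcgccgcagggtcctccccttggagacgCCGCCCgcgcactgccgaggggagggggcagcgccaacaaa
Col4a4: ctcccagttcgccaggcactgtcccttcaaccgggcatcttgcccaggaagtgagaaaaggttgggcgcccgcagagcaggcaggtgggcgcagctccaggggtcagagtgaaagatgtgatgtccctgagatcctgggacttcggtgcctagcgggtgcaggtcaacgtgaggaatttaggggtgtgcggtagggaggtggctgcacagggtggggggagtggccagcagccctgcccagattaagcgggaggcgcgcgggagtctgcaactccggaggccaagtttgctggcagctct
Col4a5: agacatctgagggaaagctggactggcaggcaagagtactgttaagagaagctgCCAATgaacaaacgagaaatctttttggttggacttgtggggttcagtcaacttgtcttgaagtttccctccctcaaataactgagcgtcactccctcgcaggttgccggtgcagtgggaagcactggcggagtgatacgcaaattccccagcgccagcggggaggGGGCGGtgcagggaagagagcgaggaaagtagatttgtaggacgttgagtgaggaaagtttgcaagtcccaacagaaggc
Col4a6: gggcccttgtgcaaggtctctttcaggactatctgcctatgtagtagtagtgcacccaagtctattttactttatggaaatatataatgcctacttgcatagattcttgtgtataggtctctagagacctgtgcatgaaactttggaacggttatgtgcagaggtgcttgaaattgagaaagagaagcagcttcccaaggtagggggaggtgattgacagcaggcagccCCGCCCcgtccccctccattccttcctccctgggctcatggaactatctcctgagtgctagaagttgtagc

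These windows differed in base composition. GC content was 74.0% in the Col4a1 window, 73.7% in that of Col4a2, 63.3% in Col4a4, 52.7% in Col4a5 and 48.3% in Col4a6, beside a median of 52.7% over 32851 promoters of the same length. CpG dinucleotides numbered 37, 33, 14, 11 and 3 in the same order, against a median of 7. The start sites of Col4a1 and Col4a2 lie 21 bases apart and their windows share 78 bases, whereas those of Col4a5 and Col4a6 lie 1343 bases apart. CCAAT matched once each in Col4a1, Col4a2 and Col4a5, and is present in 37.4% of all promoters. GGGCGG matched 3 times in Col4a2 and once each in Col4a1, Col4a5 and Col4a6, and is present in 35.7%. Neither TATAAA (13.6% of all promoters) nor TAATTA (5.3%) was present in the 5 windows, and Col4a4 held none of the 4 motifs. A match is a description of the letters, not evidence of a binding site.

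Library totals ranged from 5826000 to 17730111 counts, and SMP DKO was the shallowest group at 5826000 and 6124928. Levels are in CPM, the count relative to the scaled library total. Labels were checked against defining markers. Pax7, the muscle stem cell transcription factor, stood at 262 to 271 CPM in SMP WT, at 100 to 125 in SMP DKO and at no more than 2.63 elsewhere. Pdgfra, a receptor that marks mesenchymal progenitors, stood at 1092 to 1343 CPM in FAP WT, 935 to 1192 in FAP DKO, 411 to 485 in Misc WT and 291 to 400 in Misc DKO, while Ly6a, a surface marker of FAPs, stood at 432 to 703 in FAP and 2.61 to 7.97 in Misc. Des was lower in DKO, at 3.43 to 5.33 against 14.2 to 18.3 CPM in FAP and 54.2 to 75.4 against 171 to 184 in SMP, with ranges that overlapped in Misc (1.37 to 2.28 against 2.16 to 4.74). Syne1 was lower in DKO in Misc (59.2 to 75.5 against 85.5 to 130 CPM) and SMP (35.9 to 37.0 against 69.2 to 79.5), and its ranges overlapped in FAP (37.8 to 55.3 against 52.7 to 59.8). SMP DKO replicate 2 stood apart: its Pdgfra was 112 against 10.2 CPM in replicate 1, its Ly6a 78.8 against 3.43 and its summed endothelial markers 868 against 146. Values of the chains in SMP DKO are given with and without it.

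In DKO, the RNA of Col4a3, Col4a4, Col4a5 and Col4a6 fell in both FAP and Misc, by 2.29-fold to 5.42-fold. Col4a1 and Col4a2 did not fall: neither passed the test in FAP, and Col4a2 rose in Misc. In SMP, where these chains were scarcest, no chain passed the test. In bulk RNA, fewer cells of a type and less RNA per cell cannot be told apart. Adjusted p-values come from the quasi-likelihood test of edgeR, adjusted after Benjamini and Hochberg over all 14179 genes, and a gene was called below 0.05. Changes are given as log2 of DKO over WT ± SE, with 4 against 4 libraries in FAP and Misc and 2 against 2 in SMP.

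**Figure D1:**
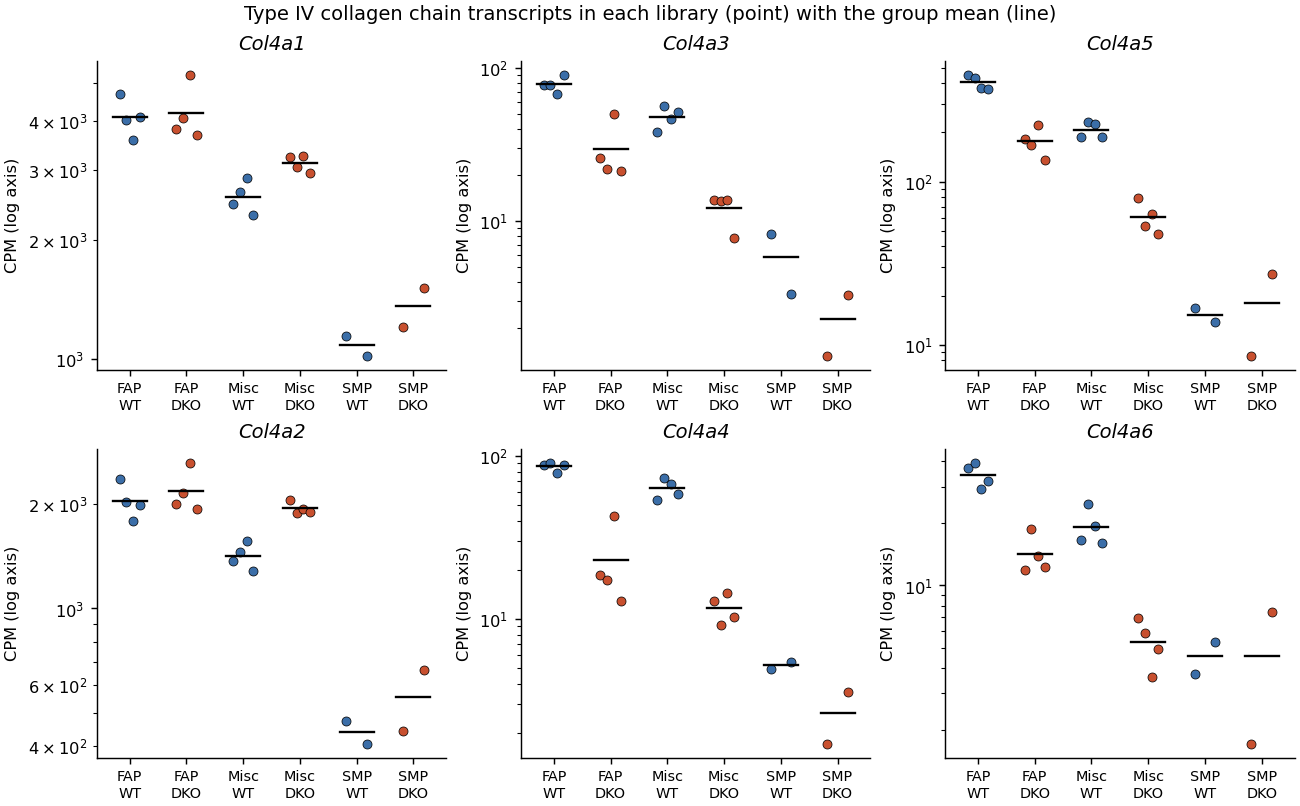
CPM (log axis, a different range in each panel) of each chain in every library (point) of the 6 groups, WT in blue and DKO in red, with the group mean as a line. In FAP and Misc every DKO point for Col4a3, Col4a4, Col4a5 and Col4a6 lies below every WT point, while for Col4a1 and Col4a2 the FAP points intermingle.

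Col4a1, the more abundant of the ubiquitous chains, stood at 4670, 4025, 3583 and 4081 CPM in FAP WT replicates 1 to 4 and at 3822, 4063, 5223 and 3695 in FAP DKO. The groups overlapped, and the highest and lowest values lay in DKO replicate 3 and WT replicate 3. The difference was 0.04 ± 0.12 (adjusted p = 0.88). Its partner Col4a2 stood at 2370, 2028, 1788 and 1988 CPM in FAP WT and at 1997, 2162, 2628 and 1938 in FAP DKO. These also overlapped, with a difference of 0.09 ± 0.13 (adjusted p = 0.70). Both estimates changed sign, to −0.08 for Col4a1 and −0.01 for Col4a2, without FAP DKO replicate 3.

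In Misc, Col4a1 stood at 2471, 2639, 2872 and 2308 CPM in WT and at 3236, 3054, 3264 and 2954 in DKO. Every DKO library lay above every WT library, yet the difference of 0.28 ± 0.12 was not called (adjusted p = 0.12). Over all tested genes, 9.92% had Misc DKO entirely above WT. Col4a2 stood at 1372, 1459, 1570 and 1281 CPM in Misc WT and at 2059, 1881, 1935 and 1903 in Misc DKO, again without overlap, and rose by 0.45 ± 0.13 (adjusted p = 0.014). This call was lost without Misc WT replicate 1 (adjusted p = 0.056) or replicate 4 (0.069).

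Col4a4 showed the lowest fold change of the 6 chains in FAP and in Misc. In FAP it stood at 88.6, 90.4, 78.1 and 88.3 CPM in WT replicates 1 to 4, and at 18.6, 17.2, 43.0 and 12.8 in DKO. The groups did not overlap, and DKO replicate 3 was the highest of its group. Its change in FAP was −1.90 ± 0.27 (adjusted p = 0.00024). In Misc, Col4a4 stood at 54.0, 73.5, 67.7 and 58.8 CPM in WT and at 12.9, 9.22, 14.4 and 10.2 in DKO. The lowest WT library was thus well above the highest DKO library, and the change was −2.44 ± 0.29 (adjusted p = 2e-05).

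Col4a3, which is read away from Col4a4 and trimerises with it, stood at 77.3, 77.6, 67.3 and 89.8 CPM in FAP WT and at 25.8, 21.8, 49.95 and 21.4 in FAP DKO. As for Col4a4, DKO replicate 3 was the highest of its group and still below every WT library. The change was −1.38 ± 0.27 (adjusted p = 0.0034). In Misc it stood at 38.1, 56.6, 46.4 and 51.2 CPM in WT and at 13.7, 13.5, 13.8 and 7.77 in DKO. Here 3 DKO libraries were nearly equal and replicate 4 was lower, and the change was −1.97 ± 0.30 (adjusted p = 0.0002).

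Col4a5, the chain that belongs to both specialised networks, stood at 450, 434, 378 and 367 CPM in FAP WT and at 183, 167, 224 and 136 in FAP DKO. No library overlapped the other group, and the change was −1.20 ± 0.23 (adjusted p = 0.0023). In Misc it stood at 189, 231, 225 and 188 CPM in WT and at 79.7, 53.8, 62.9 and 47.9 in DKO. The Misc groups lay farther apart, with a change of −1.77 ± 0.23 (adjusted p = 4.6e-05).

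Col4a6, which assembles with Col4a5, stood at 36.9, 39.1, 29.4 and 32.2 CPM in FAP WT and at 11.8, 18.8, 13.8 and 12.4 in FAP DKO. It fell by 1.29 on the log2 scale (SE 0.23, adjusted p = 0.0012), without overlap. In Misc it stood at 16.6, 24.7, 19.5 and 16.1 CPM in WT and at 6.97, 5.87, 3.60 and 4.92 in DKO. That decrease was 1.85 in size (log2 −1.85 ± 0.27, adjusted p = 5.4e-05), again with no DKO library reaching the lowest WT library.

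**Figure D2:**
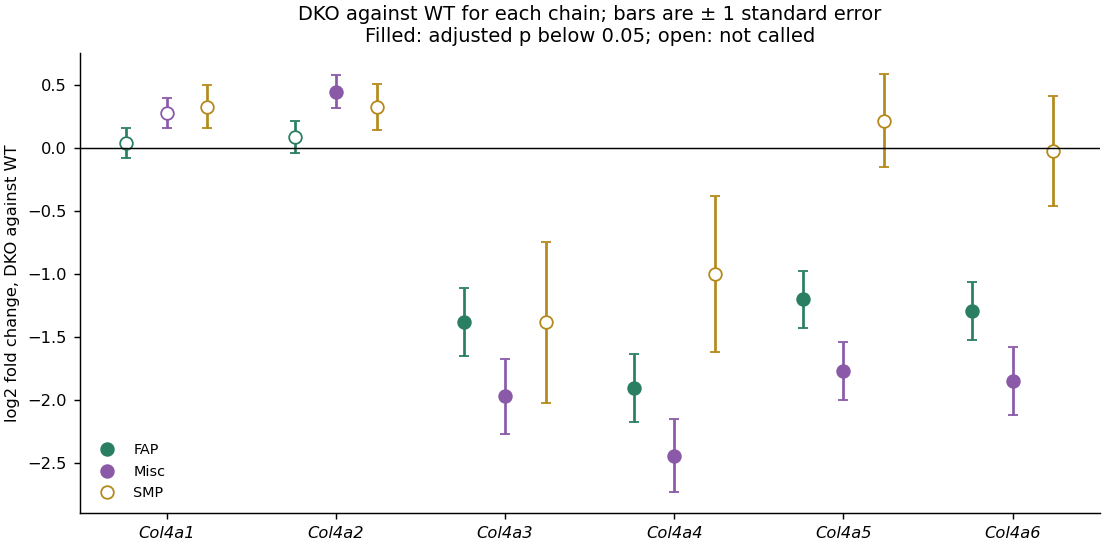
Log2 fold change of each chain, DKO against WT, with bars of 1 standard error; filled points had an adjusted p below 0.05. Col4a3 to Col4a6 lie between −1.20 and −2.44 in FAP and Misc, Col4a1 and Col4a2 between 0.04 and 0.45 in all 3 populations, and every SMP point is open.

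Thus 4 of 6 chains were called lower in FAP and 4 of 6 in Misc, where the share of all tested genes called lower was 5.14% and 9.55%. Called higher were 0 of 6 in FAP and 1 of 6 in Misc, beside 5.58% and 9.15% of all genes. A decrease that was called and at least 2-fold was met by the same 4 chains in each population and by 1.04% of all genes in FAP and 3.13% in Misc. No overlap with DKO below WT was seen for these 4 in each population, and for 10.3% of all genes in FAP and 11.3% in Misc. Alternative settings numbered 14 per chain in FAP and 13 in Misc, and 8 of them in each population left out 1 library. Over the 4 chains and both populations, all 108 resulting values kept their call, with log2 values from −2.56 to −1.09. The highest adjusted p among these was 0.026, for Col4a3 in FAP with both replicates numbered 1 left out.

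SMP held little RNA of the specialised chains. Col4a3 stood at 8.27 and 3.33 CPM in SMP WT and at 1.32 and 3.26 in DKO, where it rested on 10 and 22 counts. Col4a4 stood at 4.95 and 5.44 CPM in WT and at 1.71 and 3.56 in DKO. Neither gene's groups overlapped, with changes of −1.38 ± 0.64 (adjusted p = 0.14) and −1.0 ± 0.62 (0.27), in a comparison where 28.3% of all tested genes had DKO entirely below WT. Col4a5 stood at 16.7 and 13.7 CPM in WT against 8.57 and 27.3 in DKO. Col4a6 stood at 3.73 and 5.35 CPM in WT against 1.71 and 7.41 in DKO. In both, DKO replicate 1 was below and replicate 2 above every WT library, so that their changes of 0.22 ± 0.37 and −0.02 ± 0.44 (adjusted p = 0.71 and 0.98) averaged opposite values. Without DKO replicate 2 the values for Col4a3 to Col4a6 in turn were −2.15, −1.60, −0.84 and −1.40, none of them called. Without replicate 1 they were −0.86, −0.56, 0.83 and 0.70, and Col4a5 alone of these was called.

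Of the ubiquitous chains in SMP, Col4a1 stood at 1144 and 1020 CPM in WT and at 1202 and 1516 in DKO (0.33 ± 0.17, adjusted p = 0.17), without overlap, as for 27.4% of all genes with DKO above WT. Col4a2 stood at 474 and 407 CPM in WT and at 442 and 666 in DKO (0.33 ± 0.18, adjusted p = 0.19). In all, edgeR called 0 of 6 chains in SMP, beside 23.0% of all genes. One of them, Col4a3, had an unadjusted p below 0.05 (0.048), and it was also the chain that the DESeq2 Wald test called (−1.34, adjusted p = 0.022). Without SMP DKO replicate 2, Col4a1 was at 0.14 (adjusted p = 0.66) and Col4a2 at −0.01. Without SMP DKO replicate 1, Col4a1 was at 0.47 (0.08), and edgeR called 2 chains higher, Col4a2 (0.58, adjusted p = 0.026) and Col4a5 (0.83, 0.043). Each SMP group holds a pair of libraries only.

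Whether the DKO change differed between populations was tested directly. Between FAP and Misc, edgeR called 0 of 6 chains, beside 2.79% of all genes, with no chain below 0.05 unadjusted and DESeq2 also calling 0. The fall was smaller in FAP by 0.59 ± 0.40 for Col4a3, 0.54 ± 0.39 for Col4a4, 0.57 ± 0.32 for Col4a5 and 0.56 ± 0.36 for Col4a6 (adjusted p = 0.51 to 0.66). Without FAP DKO replicate 3 these differences were 0.21, 0.02, 0.44 and 0.57 in the same order, none of them called. FAP and Misc libraries that share a replicate number deviated together, which the tests above do not take into account. With that number within genotype as a block, the difference of 0.60 for Col4a5 was called (adjusted p = 0.0037), while those of 0.57, 0.47 and 0.58 for Col4a3, Col4a4 and Col4a6 were not (0.099, 0.22 and 0.088).

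Against SMP, the DKO change of Col4a5 was lower in FAP by 1.42 ± 0.43 (log2 −1.42, adjusted p = 0.046, 10.3% of all genes called). In Misc against SMP it was −1.99 ± 0.44 for Col4a5 (adjusted p = 0.0088) and −1.83 ± 0.52 for Col4a6 (0.034), with 8.94% of all genes called. These share the SMP libraries, and each rests on SMP DKO replicate 2. Without it the 3 values were −0.36 (adjusted p = 0.61), −0.94 (0.14) and −0.45 (0.73). The FAP value for Col4a5 lost its call under 10 of the 12 omissions of a single library. In Misc, Col4a5 also lost its call without SMP WT replicate 2 (−1.84, adjusted p = 0.051), and Col4a6 lost its call under 5 of 12 omissions. Single omissions also made calls in FAP against SMP, for Col4a4 without FAP DKO replicate 3 (−1.42, adjusted p = 0.022) and for Col4a6 without SMP DKO replicate 1 (−1.99, 0.002).

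Per kilobase of transcript, which allows levels of different genes to be set side by side, the ubiquitous pair made up most of the type IV collagen RNA in every group. In FAP WT the mean levels were 618 CPM per kb for Col4a1, 317 for Col4a2, 62.3 for Col4a5, 9.12 for Col4a3, 8.54 for Col4a4 and 5.17 for Col4a6. Col4a3 and Col4a4 did not differ beyond their spread (SD 1.08 and 0.550, n = 4). In SMP WT the same chains stood at 164, 68.3, 2.32, 0.678, 0.514 and 0.683 CPM per kb, so that Col4a3, Col4a4 and Col4a6 could not be ordered there.

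Col4a3 to Col4a6 together held 8.37% ± 0.503 of the CPM per kb of all 6 chains in FAP WT and 3.45% ± 0.370 in FAP DKO (SD, n = 4). By library the shares were 7.91, 8.92, 8.67 and 7.98% in WT and 3.76, 3.32, 3.73 and 2.98% in DKO. In Misc the share was 7.11% ± 0.547 in WT and 1.61% ± 0.263 in DKO, from 6.56, 7.80, 6.81 and 7.28% to 1.96, 1.52, 1.64 and 1.33%. SMP WT held 1.82 and 1.73%, and SMP DKO 0.750 and 1.78%. The shares of Misc DKO thus overlapped those of SMP, while every FAP DKO library stayed above them.

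The summed level of all 6 chains hardly moved in FAP, at 1020 ± 111 CPM per kb in WT and 1008 ± 162 in DKO (SD, n = 4). In Misc it was 656 ± 59.5 in WT and 787 ± 34.3 in DKO. Within that sum, the ubiquitous pair stood at 609 ± 55.6 in WT and 774 ± 31.8 in DKO, and the rarer chains at 46.6 ± 5.49 and 12.7 ± 2.61 CPM per kb. These sums are a description and carry no test.

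**Figure D3:**
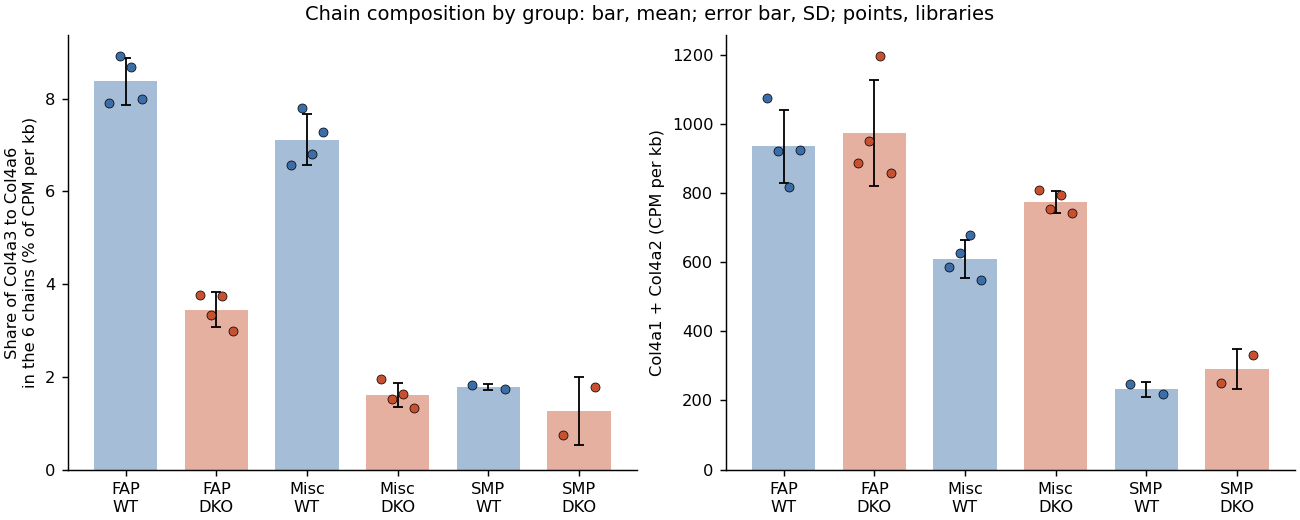
Left, the share of Col4a3 to Col4a6 in the CPM per kb of all 6 chains; right, the summed CPM per kb of Col4a1 and Col4a2. Bars are group means, error bars SD, points libraries. The share is lower in DKO libraries of FAP (2.98 to 3.76%) and Misc (1.33 to 1.96%) than in any of their WT libraries (at least 6.56%), while the sum of the ubiquitous pair overlaps in FAP and is higher in Misc DKO.

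Within each head-to-head pair the balance of the chains also shifted in places. The per-length ratio of Col4a1 to Col4a2 was 1.95 ± 0.0349 in FAP WT, 1.87 ± 0.0451 in FAP DKO, 1.77 ± 0.0131 in Misc WT and 1.57 ± 0.0585 in Misc DKO (SD, n = 4), with Misc DKO at 1.51 to 1.64 below every Misc WT library at 1.76 to 1.78. Col4a3 to Col4a4 was near 1 in WT, at 1.02 to 1.20 in FAP and 0.811 to 1.03 in Misc. In DKO it was 1.37 to 1.97 in FAP, above every WT library, and 0.898 to 1.73 in Misc, where the ranges overlapped. Col4a5 to Col4a6 was 12.1 ± 0.798 in FAP WT and 13.1 ± 3.57 in FAP DKO, and 11.2 ± 1.12 in Misc WT and 12.2 ± 3.88 in Misc DKO, which do not differ beyond their spread. In SMP that ratio was lower, at 2.60 and 4.56 in WT and 3.74 and 5.09 in DKO.

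Across the 16 FAP and Misc libraries the chains split into groups by how their log2 CPM varied. Pearson's r was 0.93 for Col4a1 with Col4a2 and 0.87 to 0.96 among Col4a3, Col4a4, Col4a5 and Col4a6. Between those groups it ran from −0.23 (Col4a2 with Col4a4) to 0.38 (Col4a1 with Col4a5). Taken as deviations from the 6 group means over 20 libraries, however, Col4a4 varied with Col4a1 at 0.81 and with Col4a2 at 0.75, as much as with Col4a3 (0.71) or Col4a5 (0.74). All these points share library, depth and genotype, and the coefficients are a description only.

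Between populations in WT, every chain was highest in FAP, lower in Misc and lowest in SMP. FAP exceeded Misc by 0.67 ± 0.12 for Col4a1 (adjusted p = 0.0001), 0.52 ± 0.13 for Col4a2 (0.0019), 0.97 ± 0.23 for Col4a5 (0.0023) and 0.84 ± 0.23 for Col4a6 (0.0059) on the log2 scale. Col4a3 was called as well at 0.70 ± 0.26 (adjusted p = 0.046), but leaving out any 1 of the 8 libraries ended that call (0.052 to 0.14), as did a fit without the low count filter (0.076). Col4a4 was not called at 0.44 ± 0.25 (adjusted p = 0.19), although its lowest FAP library (78.1 CPM) was above its highest Misc library (73.5). With replicate number within genotype as a block Col4a4 was called too (0.42, adjusted p = 0.01), and Col4a3 had an adjusted p of 0.0002. The 5 chains called higher compare with 19.3% of all genes called higher in FAP than Misc.

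FAP stood above SMP in WT for all 6 chains, where 31.1% of all genes were called higher. The differences were 1.92 ± 0.16 for Col4a1 and 2.21 ± 0.18 for Col4a2, and 3.73 ± 0.42, 4.05 ± 0.42, 4.74 ± 0.36 and 2.92 ± 0.34 for Col4a3 to Col4a6 in turn (adjusted p from 1.3e-10 to 8.5e-07). Misc stood above SMP for all 6 as well, beside 30.6% of all genes, by 1.25 ± 0.16, 1.69 ± 0.17, 3.03 ± 0.41, 3.61 ± 0.41, 3.77 ± 0.35 and 2.09 ± 0.34 in the same order (adjusted p from 9.1e-09 to 2.3e-05). Both use the same SMP libraries. Col4a5 was the chain with the largest difference in each.

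In DKO, FAP exceeded Misc for 5 of 6 chains, beside 16.0% of all genes: Col4a1 by 0.43 ± 0.12 (adjusted p = 0.0094), Col4a3 by 1.29 ± 0.30 (0.0033), Col4a4 by 0.98 ± 0.30 (0.02), Col4a5 by 1.54 ± 0.23 (5.5e-05) and Col4a6 by 1.39 ± 0.27 (0.00047). Col4a2 was not called (0.17 ± 0.13, adjusted p = 0.37). The Col4a1 call was lost without FAP DKO replicate 3 (0.30, adjusted p = 0.063), and the Col4a4 call without Misc DKO replicate 2 (0.88, adjusted p = 0.06). Without FAP DKO replicate 3, Col4a4 kept its call at 0.47 (0.045) and Col4a3 at 0.91 (0.0066). All 6 chains were higher in FAP DKO than in SMP DKO, by 1.63 to 3.73, beside 29.2% of all genes. They were called as well without SMP DKO replicate 2, by 1.82, 2.32, 4.51, 3.76, 4.39 and 3.04 for Col4a1 to Col4a6 in turn, and without replicate 1, by 1.49, 1.73, 3.22, 2.72, 2.72 and 0.94. Misc DKO was above SMP DKO for 5 of 6, by 1.20 to 2.44, beside 29.8%. For Col4a1 to Col4a5 in turn these were 1.39, 2.15, 3.22, 2.78 and 2.85 without SMP DKO replicate 2, and 1.06, 1.56, 1.92, 1.73 and 1.18 without replicate 1. The exception, Col4a6 at 0.26 ± 0.40 (adjusted p = 0.59), was 1.65 (0.0047) without SMP DKO replicate 2 and −0.45 without replicate 1. Col4a4 in that comparison lost its call without SMP DKO replicate 1 (1.73, adjusted p = 0.053).

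Summed markers of some other cells differed between genotypes. Counts of called markers are to be read against all tested genes. Called higher and lower were 5.58% and 5.14% of these in FAP, 9.15% and 9.55% in Misc and 11.8% and 11.2% in SMP. The summed level of 14 endothelial markers, none of them at 0, was 326 to 462 CPM in FAP WT and 151 to 278 in FAP DKO, and 109 to 153 in Misc WT and 62.3 to 105 in Misc DKO. Of the 14, 1 was called lower and 0 higher in each, and their median change was −0.93 in FAP and −0.56 in Misc. Cdh5 and Pecam1, which are on this list, were a small part of these sums, and their ranges overlapped between genotypes. Cdh5 stood at 4.57 to 29.1 CPM in FAP WT, 2.45 to 14.5 in FAP DKO, 3.86 to 13.8 in Misc WT and 5.51 to 9.09 in Misc DKO. Pecam1 stood at 7.71 to 32.9, 4.21 to 17.4, 6.59 to 15.8 and 6.95 to 14.1 in the same order. With both FAP replicates 1 left out, which held the most endothelial RNA of their groups, Col4a3 to Col4a6 changed by −1.32, −1.80, −1.17 and −1.18 (adjusted p = 0.026, 0.0037, 0.019 and 0.014). That omission does not remove the difference in the summed markers. The sums in replicates 2 to 4 were 326, 347 and 335 CPM in FAP WT against 160, 186 and 151 in FAP DKO. SMP WT held 303 to 405 CPM of the same markers, with Cdh5 at 46.2 to 55.9, so the sums do not rank the populations as Cdh5 does. SMP DKO replicate 2, with 868, held the highest values of SMP for Col4a5 (27.3 CPM) and Col4a6 (7.41), whereas its Col4a4 (3.56) and Col4a3 (3.26) were below both WT libraries.

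The 9 markers of fibro/adipogenic progenitors summed to 55970 to 67110 CPM in FAP WT and 47870 to 57480 in FAP DKO, which overlapped, with none called. In Misc they stood at 65990 to 75030 in WT and 44620 to 59920 in DKO, without overlap, with 1 called higher and 1 lower. The list includes the matrix genes Dcn, Col1a1, Col3a1 and Lum. Its sum was as high in Misc WT as in FAP WT although Pdgfra and Ly6a were lower in Misc, so it does not measure FAPs alone. In SMP they stood at 5831 to 6275 in WT and 3897 to 9343 in DKO, with 4 called higher. Immune markers, of which Cd3e was at 0 throughout Ptprc and Cd52 in Misc WT, and Emr1, Itgam and Cd52 in SMP WT, summed to 10.9 to 24.7 CPM in FAP WT and 23.7 to 58.5 in DKO. They summed to 12.9 to 19.5 and 15.5 to 30.4 in Misc, and to 20.0 to 26.8 and 31.5 to 318 in SMP. Muscle progenitor markers overlapped in FAP (239 to 330 in WT, 274 to 384 in DKO) and in Misc (269 to 333 and 259 to 393), with 1 and 3 called higher.

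Schwann cell markers, 11 genes with none at 0, summed to 134 to 146 CPM in Misc WT and 59.3 to 75.9 in Misc DKO, with 3 called lower, and to 45.6 to 88.6 in FAP WT and 22.1 to 59.1 in FAP DKO, with 1 called lower. They were higher in SMP, at 370 to 499 CPM. Sox10, a transcription factor on this list, was close to 0, at no more than 0.55 CPM in Misc WT and 0.37 in Misc DKO. In FAP it was at no more than 1.18 in WT and 0.93 in DKO, and the genotypes overlapped in both populations. The sums in FAP and Misc thus rest on other genes of the list. Perineurial markers summed to 98.5 to 124 CPM in Misc WT, where Lypd2 was at 0, and to 62.1 to 88.0 in Misc DKO. Their ranges overlapped in FAP, at 161 to 183 in WT and 141 to 170 in DKO. Sums of pericyte and smooth muscle markers overlapped between genotypes in FAP (407 to 568 in WT, 452 to 520 in DKO) and in Misc (535 to 673 and 516 to 566). Of these 10 genes, 1 was called lower and 0 higher in each, with median changes of −0.51 in FAP and −0.23 in Misc. In FAP, tendon cell markers stood higher in DKO (8201 to 9552 against 6377 to 7643), with 2 of 9 called higher and 1 lower. They were far higher in Misc, where genotypes overlapped (61550 to 65280 in WT, 58460 to 81070 in DKO), with 2 called higher and 3 lower. In SMP they stood lower in DKO (5648 to 8766 against 12120 to 13970), with 0 called higher and 5 lower. Mature fibre markers overlapped in FAP (29.9 to 47.1 in WT, 32.7 to 55.9 in DKO) and stood higher in Misc DKO (52.6 to 95.3 against 34.9 to 46.1). They were also higher in SMP DKO (336 to 737 against 208 to 245), with 9 of 12 called higher and 0 lower. The part of these cells in the change of the chains was not tested beyond the values given here.

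The other genes of the basement membrane are counted in 4 lists, to be read against all tested genes called higher and lower, which were 5.58% and 5.14% in FAP, 9.15% and 9.55% in Misc and 11.8% and 11.2% in SMP. Of 26 laminins, nidogens, proteoglycans and other partners, 1 was called higher and 3 lower in FAP, with a median of −0.14 beside −0.01 for all genes, and 3 higher and 11 lower in Misc, with a median of −0.50 beside 0.01. Lamc1, the laminin chain shared by most muscle laminins, fell by 0.46 on the log2 scale in FAP (adjusted p = 0.0047), as did Dag1, the laminin receptor dystroglycan (−0.44, 0.0022). Frem1, a matrix protein of epithelial basement membranes, rose there by 1.45 ± 0.13 (adjusted p = 9.3e-08) and in Misc by 1.22 (8.8e-08), and fell in SMP (−1.31, 7.6e-06). Nid1, the nidogen that links laminin to type IV collagen, was called at −0.52 (adjusted p = 0.039), a call lost under 7 of 8 single omissions. Lama2, the main laminin chain of the muscle fibre, was at −0.07 in FAP and in Misc, and Hspg2 (perlecan) at 0.12 and −0.19, none of them called.

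In Misc, Lama3 fell by 1.76 on the log2 scale (adjusted p = 0.0011), Lamc1 by 0.40 (0.0082) and Nid2 by 0.46 (0.014), while Col18a1, the basement membrane collagen that yields endostatin, rose by 0.89 (1.3e-05). Called lower in Misc as well were Lamc3 (−1.36), Npnt (−1.42) and Frem2 (−1.80), with adjusted p of 0.027, 0.018 and 0.044, each lost on leaving out at least 2 single libraries. In SMP, 3 partners were called higher and 3 lower, with a median of 0.02 beside 0.01. Of those named, Nid2 was at 0.62 in SMP (adjusted p = 0.021), Lamc1 at −0.44 (0.033) and Lamc3 at −2.25 (0.025), and each of these calls was lost on leaving out at least 3 of the 4 SMP libraries singly. Hspg2 was also called higher in SMP (0.65, adjusted p = 0.012).

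Genes for assembly, secretion and crosslinking of type IV collagen went both ways: of 25 tested of 26 in the table, 4 were higher and 4 lower in FAP (median 0.06), 5 and 8 in Misc (−0.12) and 6 and 2 in SMP (0.09). P4ha3, a prolyl hydroxylase subunit, rose by 1.91 in FAP and 1.57 in Misc (adjusted p = 0.00026 and 0.00075), and stood at 2.11 in SMP (0.029), or 0.72 (0.61) without SMP DKO replicate 2. Plod2, a lysyl hydroxylase, rose by 0.75 and 0.71 (0.00034 and 0.00025). Leprel1, the prolyl 3-hydroxylase that modifies type IV collagen, rose by 1.38 in FAP (2e-06) and fell in Misc (−0.39, 0.015), the latter a call lost without Misc DKO replicate 2 (−0.33, adjusted p = 0.06). Pxdn, the peroxidase that crosslinks the type IV network, fell in FAP (−0.45, adjusted p = 0.0063) and stood at 0.20 in Misc (0.21).

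Of 11 receptor genes, 1 was higher and 1 lower in FAP (median −0.23), 1 and 3 in Misc (−0.09) and 2 and 1 in SMP (0.20). Gpr126, an adhesion receptor that binds type IV collagen, fell in both FAP (−1.36, adjusted p = 0.0039) and Misc (−1.65, 7.4e-05). Itga1, the collagen-binding integrin chain, rose in FAP (0.72, adjusted p = 0.0011), and Itga10 rose (1.15, 2.3e-08) and Itga2 fell (−1.08, 0.0029) in Misc. In SMP, Itga10 fell (−0.89, 0.00025). Itgb1, their common partner, and the discoidin receptors Ddr1 and Ddr2 were called in neither FAP nor Misc, with values from −0.23 to 0.25. Ddr1 was called higher in SMP (0.70, adjusted p = 0.008). Of 12 tested of 16 degradation genes, 1 was higher and 3 lower in FAP, 5 and 2 in Misc and 6 and 1 in SMP, with medians of 0.12, 0.14 and 0.56. Timp1, a metalloproteinase inhibitor, rose by 2.01 in FAP and 1.48 in Misc (adjusted p = 6e-11 and 4.8e-09), and Timp3 fell by 0.42 and 0.63 (0.0086 and 9.6e-05). In SMP, Timp3 rose by 0.92 (adjusted p = 0.00012), and Timp1 was at 0.48 (0.038), or 0.31 (0.30) without SMP DKO replicate 2. Mmp2, a gelatinase that cuts type IV collagen, rose in Misc (0.77, adjusted p = 0.0019). It was called lower in SMP (−0.75, 0.024), but not without SMP DKO replicate 1 (−0.25, 0.28).

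**Figure D4:**
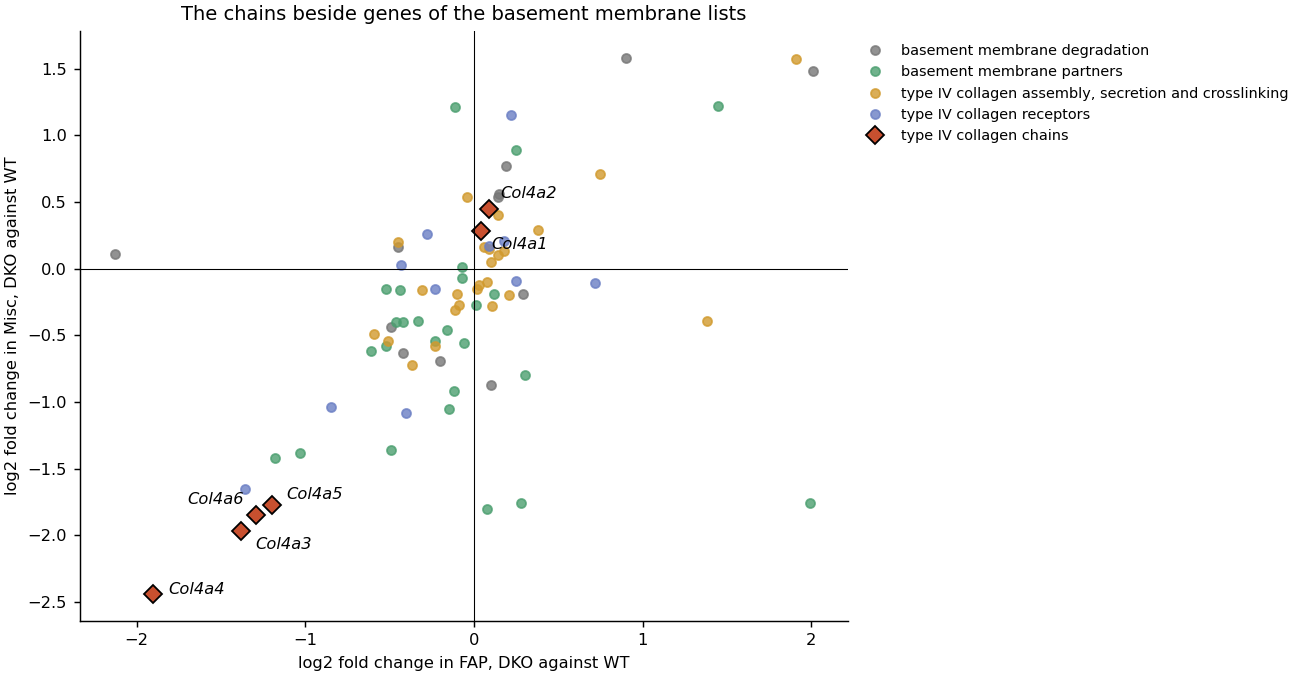
Log2 fold change, DKO against WT, in FAP (horizontal) and in Misc (vertical) for the 6 chains (diamonds) and the genes of the 4 basement membrane lists (circles). Col4a3 to Col4a6 lie at the lower left, at −1.20 or below on both axes, whereas Col4a1 and Col4a2 lie near the origin at 0.04 and 0.09 in FAP and 0.28 and 0.45 in Misc.

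Lmx1b, a transcription factor known to regulate Col4a3 and Col4a4 in the kidney, was near the limit of detection, at 8 to 15 counts per library in FAP, 2 to 16 in Misc and 0 to 1 in SMP.

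The genes whose log2 CPM varied most like each chain over the 20 libraries differed between the ubiquitous and the specialised chains. Closest to Col4a1 were Shisa5 (r = 0.99), Coro2b and Mst1r (0.976 each), and closest to Col4a2 was Col5a2, a fibrillar collagen chain (0.99), ahead of Septin5 (0.981) and Tgfbr2, a TGF-beta receptor (0.98). Lasp1, an actin-binding protein, was closest to both Col4a3 (0.965) and Col4a4 (0.969). The others were Dpyd and Fam198b (0.956 each) for Col4a3, and Adcy5 (0.951) and Irf1 (0.949) for Col4a4. For Col4a5 they were C1qtnf1 (0.984), Ces1d and Agtr1a, an angiotensin receptor (0.98 each). For Col4a6 they were Irf1, an interferon-response transcription factor (0.939), Rtn4rl1 (0.937) and Stat5b (0.934). Over the FAP and Misc libraries alone these coefficients were 0.83 to 0.979, and as deviations from group means 0.36 to 0.86. The libraries share their differences of population and genotype, and none of these coefficients was tested.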

How the data were processed

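RNA of FAP, Misc and SMP populations under DKO and WT was measured by paired-end sequencing of 20 libraries. OSA placed the reads on mm10 with RefSeq genes, per the series design text. The submitters' processing notes also list DESeq2. The deposited values are raw counts per gene by the authors; no source used here gives the counting tool or its use of strand. Of 24393 genes by Entrez identifier, 24312 matched the RefSeq table of GRCm38.p6 (mm10), and 25 blank and 27 date-like symbols were restored from identifiers.

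Counts were filtered with edgeR's filterByExpr (minimum count 10, minimum total 15), which left 14179 genes, and scaled by TMM. A robust quasi-likelihood model of all 6 groups was fitted in edgeR 4.0.16 (R 4.3.3) without a block, with Benjamini-Hochberg adjustment over the genes of a comparison. The SE is the size of the log2 change over the root of its F statistic. The steps were also run on simulated data, whose outcome is not given here. Apart from changes added to a DKO group, these had the same mean level in all groups and no pairing, unlike the real data. CPM per kb divides CPM by the length of the longest GENCODE M21 transcript paired with a RefSeq mRNA. Correlations use log2 CPM with a prior count of 2.

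Replicate numbers were checked by correlating deviations from group means. Same-numbered FAP and Misc libraries gave r of 0.18 to 0.34 (DKO) and 0.18 to 0.23 (WT), 4 pairs each. Those of other numbers gave −0.18 to 0.06 and −0.18 to 0.04. Other numbers did reach 0.26 for FAP DKO with SMP DKO and 0.29 for FAP WT with SMP DKO. Same-numbered FAP and Misc libraries were taken as paired from this check alone. Same-numbered libraries of FAP DKO and FAP WT (−0.06 to 0.29), and of Misc DKO and Misc WT (−0.16 to 0.03), were not.

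The alternatives comprised the Wald test and the size factors of DESeq2 1.42.0, fits with no filter or with only the compared groups, replicate blocks, coding length and omission of each library. Leaving out both FAP replicates 1 was chosen after seeing the data. Beyond the chains, the rule for named genes took from each of 4 basement membrane lists up to 4 called genes with the largest change per comparison, plus Lmx1b, Pxdn, Col18a1, Lama2, Lama5, Nid1, Nid2, Hspg2, Itga1, Itgb1, Ddr1 and Ddr2. The chains and the lists were chosen with earlier results of these data known. Values of named genes in further populations (Frem1, Lamc1 and Leprel1 in Misc, and those printed for SMP) were added after they were seen, and not all that the rule takes are printed.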

Additional observations from a re-analysis of the deposited data

Results flagged for a closer look

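Among 24 groups of 4 libraries (6 chains in FAP and Misc), a library lay far from the others of its group in 2, where chance gives about 1 in 20. Col4a3 stood at 49.95 CPM in FAP DKO replicate 3, the next highest being 25.8. Col4a3 stood at 7.77 CPM in Misc DKO replicate 4, with the other libraries at 13.5 to 13.8.

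The DKO change differed between populations for a few chains (edgeR quasi-likelihood test, Benjamini-Hochberg). It was −1.42 for Col4a5 in FAP against SMP (adjusted p = 0.046), −1.99 for Col4a5 in Misc against SMP (0.0088) and −1.83 for Col4a6 in Misc against SMP (0.034). Without SMP DKO replicate 2 these were −0.36, −0.94 and −0.45, none of them called. The DKO change of Col4a5 in FAP against Misc was 0.60 (adjusted p = 0.0037) with replicate number within genotype as a block, and 0.57 (0.51) without it.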

How the results depend on the processing

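The fall of Col4a3 to Col4a6 in FAP and Misc kept its direction and call under all 108 alternative values. For the results below that changed, the cause was not tested beyond what is stated. With only the compared groups in the fit, genes called for DKO in SMP fell from 3257 to 924 and for Misc against SMP effects from 1268 to 800 (fewer libraries estimate the spread). DESeq2 called 1 chain in SMP where edgeR called 0. With a replicate block within genotype, the FAP against Misc difference of effects had 1246 genes and 1 chain called, in place of 396 and 0. For FAP against SMP effects, where 1 chain was called, the count was 0 without the filter, with a replicate block, with only the compared groups and with both FAP replicates 1 out, and 2 by DESeq2. For Misc against SMP effects it was 1 without the filter and 3 by DESeq2, in place of 2. With replicate number over all 20 libraries as the block, Col4a3 in FAP against Misc WT lost its call (adjusted p of 0.06). It kept the call with the block within genotype.

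By coding length, the share of Col4a3 to Col4a6 was 8.99% in FAP WT, 7.81% in Misc WT and 1.97% in SMP WT. The change of Col4a6 in SMP was 0.00 with DESeq2 size factors and 0.01 by DESeq2. The Col4a3 difference of effects between FAP and SMP was 0.03 without the filter, 0.00 with only the compared groups and 0.06 with both FAP replicates 1 out.

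Leaving out each library gave 932 to 1696 genes called for DKO in FAP (lowest without FAP DKO replicate 2), 1821 to 2830 in SMP, 777 to 1783 for FAP against SMP effects and 782 to 1583 for Misc against SMP effects. Chains called were 0 to 2 in each of the last 3. Log2 ranges that crossed 0 were −0.08 to 0.11 for Col4a1 and −0.01 to 0.17 for Col4a2 in FAP, and in SMP −0.01 to 0.58 for Col4a2, −0.84 to 0.83 for Col4a5 and −1.40 to 0.70 for Col4a6. Col4a6 in Misc against SMP DKO ran from −0.45 to 1.65. For FAP against SMP effects, Col4a2 ran from −0.49 to 0.10, Col4a3 from −0.81 to 0.77 and Col4a6 from −1.99 to 0.11. For Misc against SMP effects, Col4a1 ran from −0.19 to 0.14, Col4a2 from −0.13 to 0.46 and Col4a3 from −1.40 to 0.18. Lama2 (−0.17 to 0.01) and Lama5 (−1.24 to 0.01) in FAP and Ddr1 in Misc (−0.23 to 0.04) also crossed 0. Over all alternatives, 202 of 216 values for the chains' genotype changes kept direction and side of the threshold, 437 of 456 for population differences and 303 of 348 for differences of effects.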
